A study of Homo sapiens with 3 samples.

Results

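The genes described here are the 9 ERK feedback genes DUSP1, DUSP4, DUSP5, DUSP6, SPRY1, SPRY2, SPRY4, SPRED1 and SPRED2, out of 20136 nuclear protein-coding genes of GENCODE release 44 on hg19. They were taken by name, and an ETS1 peak was assigned to a gene when the midpoint of the peak lay in the gene body or within 100 kb of either end. In this way 58 of the 26970 peaks of the deposited list were assigned, each to a single member. Binding of ETS1, an ETS family transcription factor, was mapped by ChIP-Seq (immunoprecipitation of chromatin followed by sequencing) in SCC25. This established line of tongue squamous carcinoma serves in the study as a mesenchymal model of head and neck cancer. The labels name no knockdown or treatment, and the 3 samples differ by antibody, with 2 from the C20 antibody and 1 from the 501A antibody. The authors made 1 consensus list from them with IDR, which retains peaks that rank alike in replicates, and the list holds the position of each peak. It carries no score, summit, read count or value per sample. No spread between samples can therefore be given, and intervals below are 95% binomial intervals (Wilson) that cover the counting of genes or peaks only.

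The RAS to ERK cascade carries growth signals from receptor tyrosine kinases through RAS, RAF and MEK to the kinase ERK, which phosphorylates transcription factors, ETS proteins among them. Its output is limited by genes that the cascade itself switches on. DUSP proteins are dual-specificity phosphatases that remove the activating phosphates from MAP kinases, with DUSP1, DUSP4 and DUSP5 in the nucleus and DUSP6 in the cytoplasm, where it is selective for ERK. Sprouty proteins (SPRY) act upstream, between the receptor and RAF, and SPRED proteins bring the RAS inactivator neurofibromin, the product of NF1, to the membrane.

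Every one of the 9 genes had an ETS1 peak that reached to within 500 bp of an annotated transcription start site (TSS), against 57.4% of all protein-coding genes. When the midpoint of the peak had to lie within 500 bp of a TSS, 8 of the 9 met this (88.9%, interval 56.5 to 98.0%), against 53.1% of all protein-coding genes. The exception was SPRED1, whose promoter peak covers the TSS but has its midpoint 532 bp upstream of it. SPRED2 met the rule only through a peak of 486 bp at an internal TSS, 54.8 kb into the gene, and the midpoint of its promoter peak was 959 bp from the canonical TSS. A peak lay directly over the canonical TSS, the start of the 1 transcript that the annotation takes as representative, at 7 of the 9 genes, against 51.6% of all. At the other members, DUSP4 and SPRY1, the peak began 1109 and 523 bp inside the gene and covered later TSSs instead. With the canonical TSS and the midpoint together, only DUSP1, DUSP5, SPRY2 and SPRY4 were left, which is 4 of 9 against 46.2% of all genes.

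The peaks at these starts were wide. The widest TSS peak of each gene measured 4073 bp at DUSP5, 3036 bp at SPRED2, 3034 bp at SPRY4, 2780 bp at DUSP1, 2495 bp at SPRY1, 2461 bp at DUSP6, 2351 bp at SPRED1, 2200 bp at SPRY2 and 1979 bp at DUSP4. Their median was 2495 bp, whereas the median over the 11565 protein-coding genes with such a peak was 1385 bp (quartiles 1031 and 1901 bp), so that all 9 values lay above the upper quartile. A width of at least 2064 bp marks the widest 10% of the 26961 nuclear peaks, a limit chosen after the widths had been seen. Such a peak was present at a TSS of 8 of the 9 genes, with SPRY2 just inside the limit and DUSP4 just outside it. The same held for 11.5% of all protein-coding genes, and for 19.97% of those with a TSS peak. With the widest 5% of peaks (at least 2538 bp) the count was 4 of 9, against 6.09% of all. The number of annotated TSSs per member ran from 1 at DUSP1 to 8 at SPRED2, and its part in these widths was not tested.

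**Figure D1:**
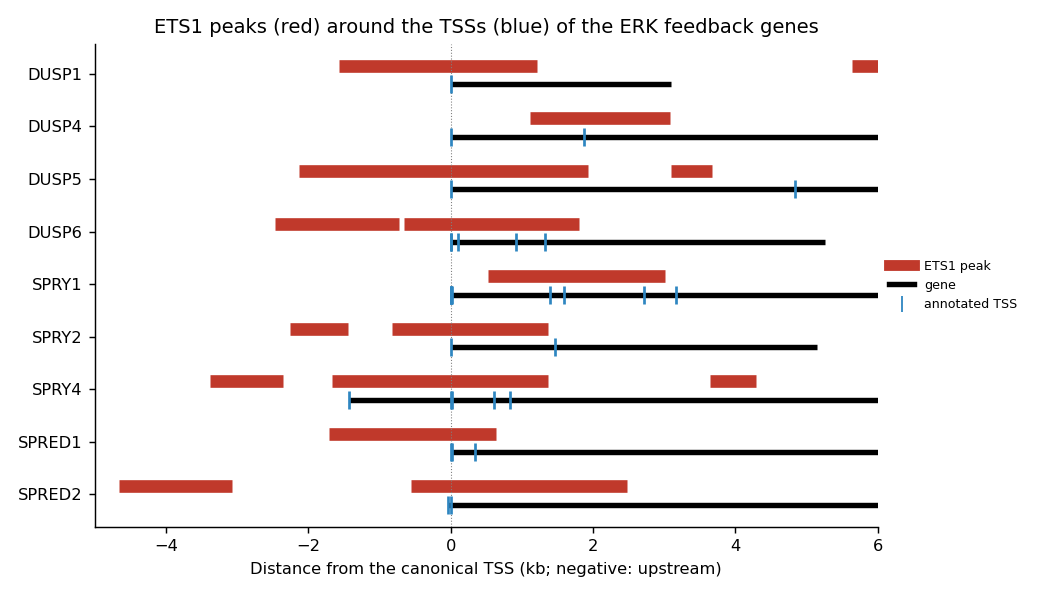
ETS1 peaks (red bars) from 5 kb upstream to 6 kb downstream of the canonical TSS of each gene, read in the direction of transcription in kb, with the gene (black) and its annotated TSSs (blue ticks). The widest TSS peak covers the canonical TSS at 7 genes and starts 1109 bp inside DUSP4 and 523 bp inside SPRY1.

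DUSP1, an immediate early phosphatase of p38, JNK and ERK, lies on the minus strand at chr5:172195099-172198198 and is 3.10 kb long. Its only annotated TSS, at 172198198, sat under the peak chr5:172196988-172199767, which reached 1569 bp upstream and 1210 bp into the gene. This was 1 of 12 peaks assigned to DUSP1. Upstream stood narrow peaks of 353 and 625 bp, 6.41 and 7.21 kb from the TSS, and a wider one of 1896 bp at 29.7 kb. Beyond 60 kb upstream the window runs into ERGIC1, a gene of early secretory transport, and 4 of the peaks lay at its TSS or inside it. A cyclic AMP response element (CRE, TGACGTCA on either strand), the site of CREB and ATF factors, was found 121 bp upstream of the TSS. It is in capitals in the 300 bp at the midpoint of the promoter peak, which held no GGAA, the shortest ETS sequence that was searched.
DUSP1 promoter peak, chr5:172198228-172198527, minus strand: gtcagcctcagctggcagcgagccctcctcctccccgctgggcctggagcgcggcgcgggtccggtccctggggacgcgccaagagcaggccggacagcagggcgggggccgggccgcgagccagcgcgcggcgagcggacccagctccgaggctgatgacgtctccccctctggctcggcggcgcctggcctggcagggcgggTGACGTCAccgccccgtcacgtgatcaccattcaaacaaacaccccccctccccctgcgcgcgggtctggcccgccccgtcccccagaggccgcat
A CRE was present in 1.59% of the 11685 peaks whose midpoint lay within 500 bp of any TSS, in windows of the same 300 bp. The whole promoter peak of DUSP1 held 34 GGAA and 2 CCGGAA sequences, the latter 816 and 1081 bp upstream of the TSS.

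DUSP5, a nuclear phosphatase selective for ERK, had the most peaks of the 9 genes, 15. It lies on the plus strand at chr10:112257665-112271291. The promoter peak chr10:112255529-112259601 reached 2136 bp upstream and 1936 bp downstream of the canonical TSS, and its width exceeded that of the widest TSS peak at 98.3% of the genes that have one. Its 300 bp midpoint window covers the TSS itself and held 2 adjoining CArG boxes, centred 76 and 66 bp upstream. The CArG box is the site of serum response factor, which binds DNA together with ternary complex ETS proteins at many genes induced by growth factors. CArG boxes occurred in 0.702% of all TSS peaks in this window. The capitals in the sequence mark both boxes and, before them, 1 ETS core (AGGAAA or AGGAAG on either strand), which reads as its complement here.
DUSP5 promoter peak, chr10:112257416-112257715, plus strand: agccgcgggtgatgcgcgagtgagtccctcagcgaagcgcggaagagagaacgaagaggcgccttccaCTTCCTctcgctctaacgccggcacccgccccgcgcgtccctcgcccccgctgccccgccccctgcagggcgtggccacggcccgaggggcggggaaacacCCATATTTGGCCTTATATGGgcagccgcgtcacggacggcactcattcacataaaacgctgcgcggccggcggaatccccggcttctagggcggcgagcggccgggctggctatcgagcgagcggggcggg
A second group of 7 peaks stood 77.4 to 99.2 kb upstream within 22.4 kb, at chr10:112158062-112180451, and all 7 lay in the same super-enhancer. Their widths ran from 281 to 1261 bp, well below that of the promoter peak. The peak of this group that comes earliest in the deposited list, chr10:112173975-112174869, held 3 ETS cores and 1 AP-1 site, which the capitals mark. AP-1 sites, bound by FOS and JUN dimers, were searched as TGANTCA with any base at N.
DUSP5 upstream peak, chr10:112174273-112174572, plus strand: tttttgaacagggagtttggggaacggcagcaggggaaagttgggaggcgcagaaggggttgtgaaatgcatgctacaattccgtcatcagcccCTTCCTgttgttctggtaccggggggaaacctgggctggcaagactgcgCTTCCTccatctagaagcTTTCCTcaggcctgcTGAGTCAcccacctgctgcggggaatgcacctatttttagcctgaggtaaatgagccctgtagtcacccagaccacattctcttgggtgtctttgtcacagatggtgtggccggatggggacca
Another group of 3 peaks lay 28.1 to 38.4 kb downstream of the TSS and outside the gene. A narrow peak of 578 bp was the only one in the first intron, 3.39 kb from the TSS, and the peak furthest downstream marked the TSS of SMC3, a cohesin subunit.

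DUSP6, on the minus strand at chr12:89741012-89746278, had 4 peaks, and all 4 were in a super-enhancer. The promoter peak chr12:89744469-89746929 covered all 5 annotated TSSs of the gene. A second peak of 1743 bp followed after a gap of 79 bp, at the TSS of an unnamed noncoding gene (ENSG00000286608) upstream, so that both together took up 4283 bp. The midpoint of the promoter peak fell in exon 1, and the 300 bp around it held a single GGAA and no ETS core. Further upstream, inside that noncoding gene, stood peaks of 597 and 797 bp at 18.4 and 23.2 kb. The first of them held 7 GGAA sequences in its window, 1 of them in an ETS core. A match to the AP-1 pattern, TGAATCA with A at the free base, was separated from this core by a few bases, as the capitals show. Binding of AP-1 there was not tested.
DUSP6 upstream peak, chr12:89764541-89764840, minus strand: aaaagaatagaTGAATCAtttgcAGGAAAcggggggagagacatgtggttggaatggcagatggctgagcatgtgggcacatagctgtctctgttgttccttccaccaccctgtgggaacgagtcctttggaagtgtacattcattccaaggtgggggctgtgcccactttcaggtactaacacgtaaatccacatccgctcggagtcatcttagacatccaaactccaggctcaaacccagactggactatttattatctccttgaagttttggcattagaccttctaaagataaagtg
The peak at 23.2 kb held 1 ETS core, 1 CCGGAA and 2 AP-1 sites.

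DUSP4, a nuclear phosphatase of ERK and JNK, was the member with the fewest peaks among the phosphatases, 3 in a window of 218 kb. The gene runs on the minus strand from 29190581 to 29208201 of chromosome 8. Its TSS peak, from 29205114 to 29207092, lay in the first intron of the canonical transcript with its midpoint 219 bp from the TSS of the second annotated transcript, and left the canonical TSS uncovered. In the 300 bp at its midpoint there were 11 GGAA and 4 ETS cores, the most ETS cores of any TSS peak among the members. The others lay 63.6 kb downstream between genes and 87.4 kb downstream at the TSS of KIF13B, a kinesin. None of the 3 was in a super-enhancer.

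The Sprouty genes differed in how much lay around a similar wide TSS peak. SPRY1, on the plus strand at chr4:124317950-124324915, had a single peak in its whole window of 207 kb. That peak, chr4:124318473-124320967, started 523 bp after the canonical TSS and covered 3 of its 7 annotated TSSs. Its midpoint window had a GC content of 80.0% and held none of the motifs searched, while the whole peak held 23 GGAA and 2 CCGGAA. Of all protein-coding genes, 12.4% had fewer peaks than SPRY1, and these had none.

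SPRY2, on the minus strand at chr13:80910111-80915261, had 2 peaks in 205 kb, and no other protein-coding gene reached into its window. The promoter peak chr13:80913892-80916091 covered the canonical TSS, and a narrower one of 814 bp followed upstream after 607 bp. The midpoint of the promoter peak lay in exon 1. Its window held 7 GGAA, of which 3 were part of an ETS core, and these 3 cores, in capitals, read on the strand of the gene.
SPRY2 promoter peak, chr13:80914842-80915141, minus strand: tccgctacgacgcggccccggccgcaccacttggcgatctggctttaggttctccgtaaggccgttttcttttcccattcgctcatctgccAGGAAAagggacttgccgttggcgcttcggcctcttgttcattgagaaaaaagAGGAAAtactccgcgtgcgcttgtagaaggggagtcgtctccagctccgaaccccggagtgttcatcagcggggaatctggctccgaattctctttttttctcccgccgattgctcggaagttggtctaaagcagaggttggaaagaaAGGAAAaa
A CCGGAA lay outside this window, 139 bp upstream of the TSS.

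SPRY4, on the minus strand at chr5:141689992-141706020, had 10 peaks. The promoter peak chr5:141703222-141706255 covered 5 of its 6 annotated TSSs, and with a peak in the first intron, 3.97 kb downstream of the canonical TSS, and one 2.87 kb upstream it formed a group of 3 in a super-enhancer. Another group of 3 stood 32.1 to 39.5 kb upstream inside the antisense noncoding gene SPRY4-AS1, which starts beside SPRY4, and outside the super-enhancer. The other 4 lay downstream of the gene, the furthest 109 kb from the canonical TSS. The nearest peak of the upstream group, chr5:141736108-141737272, had a GC content of 68.3% in its window and held 2 ETS cores on opposite strands, separated by a short stretch rich in A and T.
SPRY4 upstream peak, chr5:141736541-141736840, minus strand: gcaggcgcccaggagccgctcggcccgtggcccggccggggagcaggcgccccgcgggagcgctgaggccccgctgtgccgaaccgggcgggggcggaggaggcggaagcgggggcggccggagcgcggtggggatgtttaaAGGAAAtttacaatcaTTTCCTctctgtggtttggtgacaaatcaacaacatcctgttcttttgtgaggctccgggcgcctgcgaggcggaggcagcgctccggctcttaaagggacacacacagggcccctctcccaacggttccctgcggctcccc

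The SPRED genes are the longest members. SPRED1, mutated in Legius syndrome, spans 104 kb on the plus strand at chr15:38545037-38649450 and had 2 peaks. The promoter peak chr15:38543330-38545680 reached 1707 bp upstream and 643 bp into the gene and covered its 3 annotated TSSs. The remaining peak was at the TSS of FAM98B, 201 kb away, and no peak midpoint fell inside the SPRED1 gene. SPRED2, of 122 kb on the minus strand at chr2:65537985-65659771, had 9 peaks, 7 of them in the gene. The promoter peak chr2:65657257-65660292 covered the canonical TSS and ended 2476 bp downstream of it, in intron 1. A group of 4 peaks of 339 to 605 bp stood 48.5 to 64.9 kb into the gene within 16.8 kb, and one of these had its midpoint 27 bp from the TSS of a short SPRED2 transcript. Peaks of 421 and 830 bp lay in introns 4 and 5, and these 6 intronic peaks shared a super-enhancer that the promoter peak was not part of. The peak in intron 5 held 5 GGAA, 1 of them in an ETS core.
SPRED2 intron 5 peak, chr2:65543324-65543623, minus strand: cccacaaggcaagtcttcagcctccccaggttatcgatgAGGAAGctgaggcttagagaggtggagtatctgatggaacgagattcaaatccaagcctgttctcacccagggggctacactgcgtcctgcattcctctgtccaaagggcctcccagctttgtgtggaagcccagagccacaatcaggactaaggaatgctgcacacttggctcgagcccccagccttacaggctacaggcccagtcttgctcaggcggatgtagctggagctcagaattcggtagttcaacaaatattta
A peak of 1592 bp lay 3.86 kb upstream at the TSS of the noncoding gene LINC02934. The peak furthest downstream, beyond the end of SPRED2, was at the TSS of ACTR2, an actin nucleation gene.

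**Figure D2:**
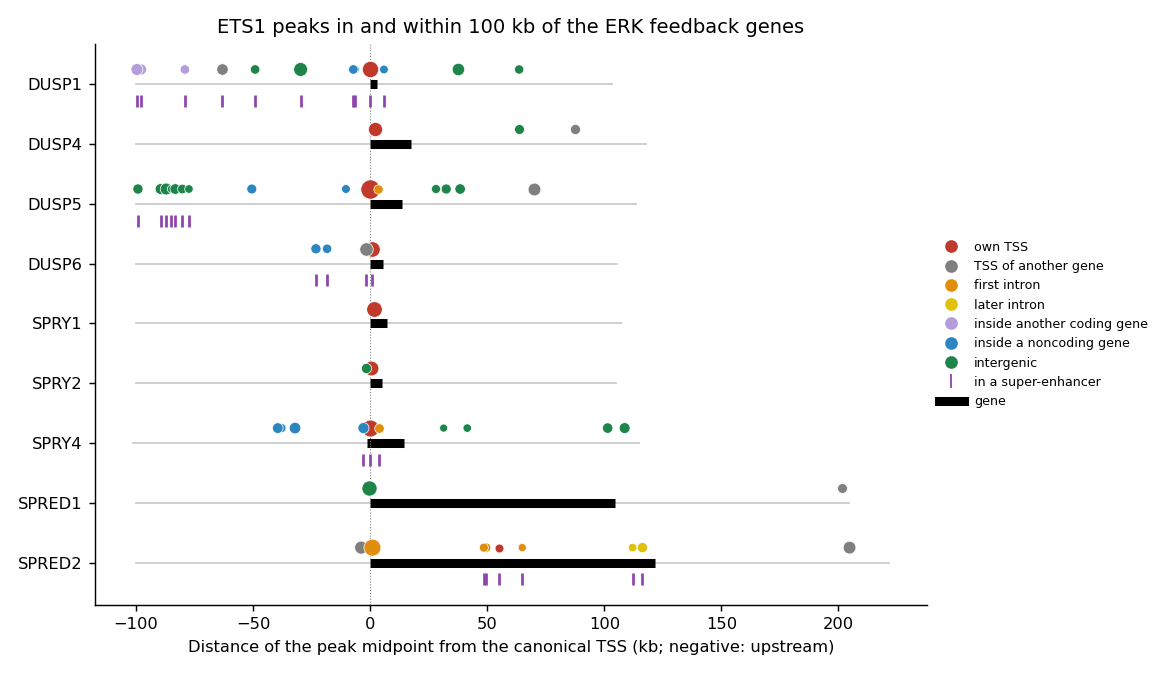
Positions of the 58 ETS1 peaks along each gene (black bar) and 100 kb on both sides (grey line), in kb from the canonical TSS in the direction of transcription. Circles are peak midpoints, larger for wider peaks and coloured by position, and purple ticks mark the 30 peaks in a super-enhancer. DUSP5 has 15 peaks and SPRY1 has 1.

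By position, 8 of the 58 peaks were at a TSS of the member itself (13.8%, interval 7.16 to 24.9%) and 7 at a TSS of another gene. A further 6 lay in the first intron of the member and 2 in a later intron, while 3 were inside another coding gene, 11 inside a noncoding gene and 21 in intergenic sequence. Each peak was counted only in the first of these classes that applied. Within 500 bp of a TSS of any gene lay 15 of the 58 peaks, beside 11685 of the 26961 nuclear peaks, a lower share. Over 1500 bp from any TSS lay 36 of the 58, beside 12982 of the 26961, a higher share. The promoter peaks of SPRED1 and SPRED2 count as intergenic and as first intron, since their midpoints were 532 and 959 bp from the TSS. Of the 58 peaks, 29 had their midpoint upstream of the gene, 14 in it and 15 downstream. The member was the protein-coding gene with the nearest canonical TSS for 43 peaks (74.1%, interval 61.6 to 83.6%). The others were nearer to the TSS of a neighbour, such as ERGIC1 beside DUSP1. Several of them lay side by side and are not independent, so that this interval is too narrow. No such share was computed for other genes.

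Although every member had a peak reaching to within 500 bp of an annotated TSS, the number of peaks in the gene or within 100 kb was not high as a whole. The members carried 15 (DUSP5), 12 (DUSP1), 10 (SPRY4), 9 (SPRED2), 4 (DUSP6), 3 (DUSP4), 2 (SPRY2), 2 (SPRED1) and 1 (SPRY1), with a median of 4. The median over all protein-coding genes was also 4 (quartiles 2 and 8), and 12.4% of genes had none. The counts fell into a high set of 4 genes, each above the upper quartile of all genes, and a low set of 5 genes at or below the median. Per 100 kb of window the range was from 0.483 at SPRY1 to 7.02 at DUSP5, with a median of 1.95 against 1.61 over all genes. The 2 sets hold for counts and not for this density. SPRED2, with a window of 322 kb, had 2.80 peaks per 100 kb, above 68.6% of genes and so below the upper quartile. DUSP6 had 1.95, above 56.6% of genes and so over the median. With a flank of 20 kb the median was 3 peaks per member and 1 per protein-coding gene, and in the gene bodies alone it was 1 for both.

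**Figure D3:**
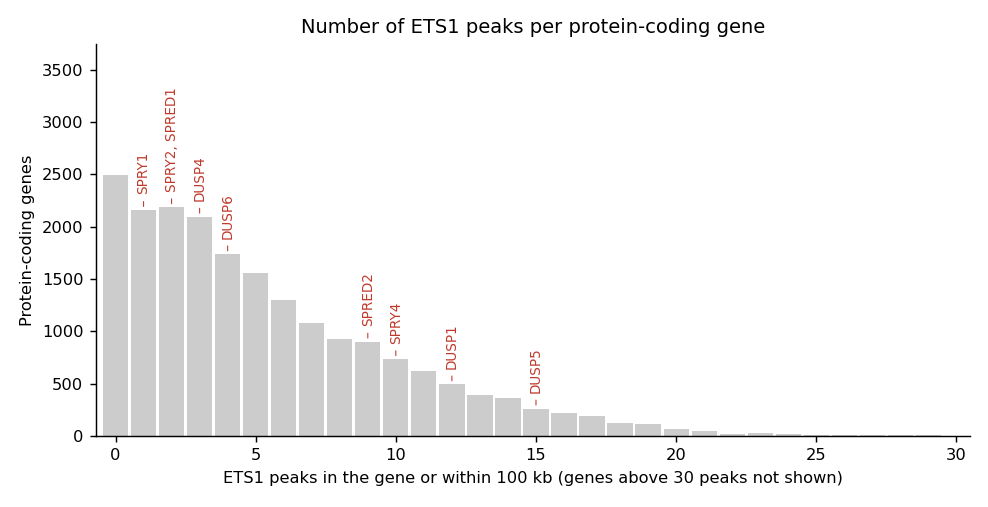
Number of protein-coding genes (vertical axis) by the number of ETS1 peaks in the gene or within 100 kb (horizontal axis). The 9 members are named above their bars and run from 1 peak to 15, around a median of 4 that all genes share.

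Super-enhancers, long stretches with the most of the active mark H3K27Ac, were called by the study in SCC25 cells. They held 30 of the 58 peaks assigned to the members (51.7%, interval 39.2 to 64.1%). Of all nuclear peaks, 17.1% lay in one. These 30 peaks came from 6 super-enhancers at 5 genes, with 10 at DUSP1, 7 at DUSP5, 6 at SPRED2, 4 at DUSP6 and 3 at SPRY4, so that peaks of one super-enhancer are not independent and the interval is too narrow. Those counted at DUSP1 include the 4 peaks at the TSS of ERGIC1 or inside it, and a further peak nearer to ERGIC1 than to DUSP1. The peak furthest upstream of DUSP5 was nearer to the TSS of SMNDC1. The share therefore covers the windows of the members, neighbouring genes included. By gene, 5 of 9 members had at least 1 such peak within 100 kb, and 17.1% of all protein-coding genes had one. The widest TSS peaks of DUSP1, DUSP6 and SPRY4 were in a super-enhancer, and those of DUSP4, DUSP5, SPRY1, SPRY2, SPRED1 and SPRED2 were not. All 4 phosphatase and Sprouty genes with 4 or more peaks had peaks in a super-enhancer, as had SPRED2, and none of the 4 genes with fewer did. Peaks in a super-enhancer are part of these counts, with all 4 at DUSP6 and 10 of 12 at DUSP1. This split is therefore partly built in, and it places DUSP6 otherwise than the high and low sets above.

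The share of peaks with an ETS core or an AP-1 site at the midpoint was compared with that of all ETS1 peaks. The motifs were searched on both strands in 300 bp, namely GGAA, the ETS core that contains it, CCGGAA, which also contains GGAA and is the form preferred by ETS1, AP-1, CRE and the CArG box. The midpoint stands in for the summit, which the list does not give. Among the 36 member peaks over 1500 bp from any TSS, 24 held an ETS core (66.7%, interval 50.3 to 79.8%), against 66.1% of all such peaks. AP-1 sites were in 12 (33.3%, interval 20.2 to 49.7%) against 32.9%, and both together were in 8 (22.2%) against 22.0%. CCGGAA was in 6 of the 36 (16.7%, interval 7.87 to 31.9%) against 9.02%. Of the 15 member peaks within 500 bp of any TSS, 5 held an ETS core (33.3%, interval 15.2 to 58.3%) against 46.1%, and 4 held CCGGAA (26.7%, interval 10.9 to 52.0%) against 25.3%. Each of these intervals included the share of all peaks, so that no difference was detectable at these numbers. CArG boxes were in 3 of the 58 windows (5.17%, interval 1.78 to 14.1%), at the DUSP5 promoter, in the DUSP5 upstream group and downstream of DUSP1, against 0.964% of all nuclear peaks. This rests on 3 windows, and 7 motif counts were made in each of 3 sets of peaks (all, TSS and distal).

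**Figure D4:**
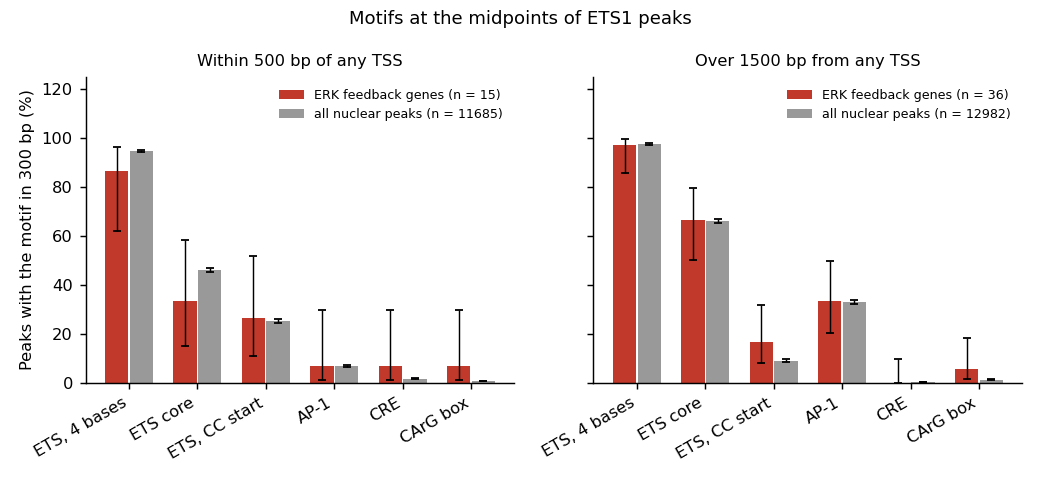
Share of ETS1 peaks (%) with each motif in the 300 bp at the midpoint, for peaks of the ERK feedback genes (red) and all nuclear peaks (grey), at TSSs (left) and over 1500 bp from any TSS (right), with 95% Wilson intervals. The 3 ETS bars are the 4-base GGAA, the ETS core and CCGGAA, and the ETS core is in 66.7% and 66.1% of the distal peaks.

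Over its whole width, the widest TSS peak of each of the 9 genes held at least 4 ETS cores and at least 1 CCGGAA. Of the 11685 TSS peaks in all, 91.5% held an ETS core and 58.0% a CCGGAA. A wide peak has more room for such short sequences. Per kb, the 9 peaks held 3.07 ETS cores and 0.533 CCGGAA, and all TSS peaks held 2.42 and 0.726. The count of ETS cores was highest at DUSP5 with 15, and the density was highest at DUSP4 with 4.55 per kb. The CCGGAA nearest to a canonical TSS were those of SPRY2, 139 bp upstream, and SPRED2, 179 bp downstream.

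Other genes of the pathway were counted in lists taken whole. Among 10 genes listed as responsive to ERK activity, a TSS peak of at least 2064 bp was present at 10, from 2217 bp at ETV5 to 6277 bp at CCND1, with a median of 2818 bp. These include the ETS factors ETV4 (2805 bp) and ETV5, the early response factors FOS (3310 bp) and EGR1 (2474 bp), and IER3 (3275 bp). By contrast, 1 of 12 genes of the RAS to ERK cascade itself had one, which was HRAS with 2940 bp. Of the cascade genes, 10 had a peak within 500 bp of a TSS, with a median width of 1372 bp, near that of all genes. BRAF (1294 bp) and MAP2K1 (1514 bp) lay near this middle, and MAPK3 and ARAF had no TSS peak. The other MAPK phosphatases included 1 of 6 with a wide TSS peak, DUSP10 (2575 bp), which acts on p38 and JNK, while DUSP7 and DUSP9 had no TSS peak although 16 peaks surrounded DUSP7. SPRED3 had a peak of 4049 bp and SPRY3 one of 775 bp. Of 6 other negative regulators, ERRFI1, an inhibitor of EGFR, had a wide one (2232 bp), whereas NF1 (1458 bp), RASA1 (1655 bp) and CBL (1358 bp) did not, and PEBP1 and LRIG1 had no TSS peak. All of these lists were set down with earlier results of the series known, and the difference between them was not tested.

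**Figure D5:**
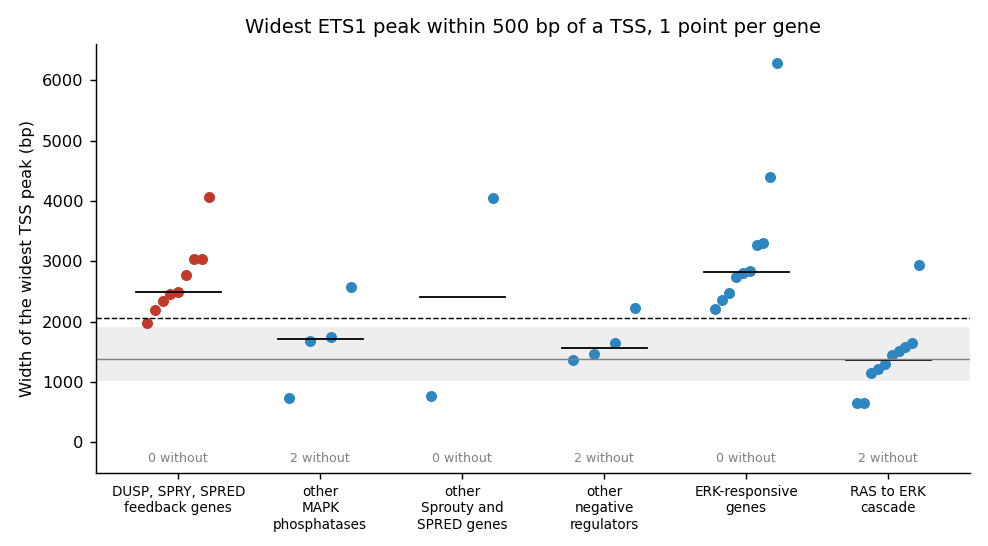
Width in bp of the widest ETS1 peak within 500 bp of a TSS, 1 point per gene, for the 9 feedback genes (red) and the other lists (blue), with the median of each list as a black bar. The grey band and line are the quartiles and median of all protein-coding genes (1031, 1385 and 1901 bp), the dashed line is 2064 bp, and genes without such a peak are counted below. The feedback genes and the ERK-responsive genes lie mostly above the dashed line and the cascade genes mostly below it.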

How the data were processed

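The authors performed ETS1 ChIP-Seq on 3 samples of SCC25 cells. Reads were mapped with Bowtie 1.1.1 to hg19, keeping reads with a single locus, and merged with SAMtools 1.3. Peaks were called by the authors with MACS2 against a merged input and passed through IDR. The deposited list holds positions only, in 3 columns, pooled over all samples, and depth per sample is not given in it. The 9 mitochondrial peaks were left out. Genes, TSSs and sequence came from GENCODE release 44 on GRCh37, which has the nuclear sequence of hg19, and 1 record was kept per symbol. Positions are 1-based. Super-enhancers were read as positions from the study's supplement. No test over samples was possible, so counts stand beside those of all protein-coding genes or all nuclear peaks.

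The members, the gene lists and the rules were chosen with earlier results of these data known. All members are named, with every TSS peak and every peak in a member, and the other genes come from lists taken whole. Values of some single genes of these lists are not reported here. Sequences are shown for the peak nearest to each canonical TSS, except on chromosome 8 and where the window held no motif other than GGAA, and for the earliest distal peak of a member in the list. The width of TSS peaks was added after it had been seen. The counting code was tested on simulated data. The work used Python 3.11.15, numpy 2.4.6, scipy 1.17.1, pysam 0.24.0 and matplotlib 3.10.9.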

Additional observations from a re-analysis of the deposited data

How the results depend on the processing

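No paired analysis was possible because the list is pooled over the 3 samples, and for the same reason no replicate could be left out. The count of members with a TSS peak (8) stayed between 7 and 9 under wider distances, overlap in place of the midpoint, and a peak over the canonical TSS, an alternative that was not planned and was added with the data in view. Over all protein-coding genes these settings gave shares from 51.6 to 58.1%. The count of members was 4 (46.2% of all genes) with the midpoint and the canonical TSS only. It was 5 (34.8% of all genes) in the first 13485 peaks of the list, whose order the sources do not explain. The 58 assigned peaks became 39 with a flank of 50 kb, 29 with 20 kb, 14 in the gene bodies, 33 in the first 13485 peaks and 51 with peaks within 1 kb joined. The median per member was 1 in the gene bodies, as for all genes, and otherwise between 3 and 4. It was 4 against 3 over all genes with a flank of 50 kb, and 3 against 1 with 20 kb. In the first 13485 peaks it was 4 against 2, and with peaks within 1 kb joined it was 3 against 4. How the members stand beside all genes therefore depends on the setting. The share with an ETS core (55.2%) was 79.3% in 600 bp, 94.8% in whole peaks, 17.2% for CCGGAA and 94.8% for GGAA alone, and in these settings all nuclear peaks gave 79.2%, 90.1%, 16.3% and 96.3%. Wide TSS peaks, counted only after the data were seen, were at 9 members with the widest 25%, 4 with the widest 5%, and 7 over the canonical TSS. The shares at a member TSS, nearest to a member and in a super-enhancer moved by less than their intervals. One list of positions limits all of this: a site just under the IDR threshold cannot be recognised, and C20 and 501A cannot be compared.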

Other observations

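Noncoding genes start beside several of the ERK feedback genes, and 11 of the 58 peaks lay inside one. DUSP5-DT, transcribed away from DUSP5, held peaks of 735 and 468 bp at 50.6 and 10.4 kb upstream of the DUSP5 TSS. SPRY4-AS1 held peaks of 1165, 541, 920 and 1023 bp. The noncoding gene ENSG00000253736, which spans DUSP1, held 3 peaks besides the DUSP1 promoter peak. Reads from both strands of DNA are pulled down alike, so a peak in such a stretch cannot be given to one gene or the other.

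The deposited list is not sorted by position, and its order is not explained in the sources used here. Of the member peaks, 9 (15.5%) were among the first 2697 lines, which are 10% of the list. The earliest lay away from the promoters, with the DUSP6 peak 18.4 kb upstream (597 bp) in line 84, the SPRY4 peak 32.1 kb upstream (1165 bp) in line 100 and the SPRED2 intron 5 peak (830 bp) in line 234. The widest TSS peaks of the members ranged from line 439 at DUSP6 to line 26489 at SPRY1, with widths of 2461 and 2495 bp.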
